A study of Mus musculus with 32 samples.

Results

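Adult lungs without glutathione reductase were compared with adult lungs that have it. The comparison rests on 6 of the 32 arrays of the study: 3 from Gsr-KO mice and 3 from Gsr-WT mice, all C3H/HeN, kept in room air from birth and killed at postnatal day 56 (P56). Arrays were chosen by their labelled genotype, age and gas alone, and all 13345 measured genes entered. The other groups of the study are the same 2 genotypes before birth at embryonic day 19 (E19), 5 days after birth (P5) in air or hyperoxia, and at P56 after neonatal hyperoxia and recovery in air. Hyperoxia was 100% oxygen from postnatal day 0 to day 5. Each array holds RNA from a portion of the lung of 1 mouse. Every cell type of the lung contributed to it, so that fewer cells of a type and less RNA per cell cannot be told apart. How the Gsr allele was made and the sex of the mice are not given in the sources used here.

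Glutathione is the most abundant small thiol of the cell. Peroxidases oxidise it when they remove hydrogen peroxide and lipid peroxides, and glutathione reductase, the product of Gsr, returns the oxidised disulfide to the thiol with electrons from NADPH. The thioredoxin system works in parallel, and transcription factor NRF2 drives many genes of both systems through the antioxidant response element, a short sequence in their promoters. Lung is exposed to more oxygen than other organs and holds high levels of extracellular superoxide dismutase and of glutathione.

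Values are array signals on a linear scale. Changes are KO minus WT on the log2 scale after an offset of 26.3 was added to each signal, which understates the change of dim genes. A gene was called where its Benjamini-Hochberg adjusted p from limma was under 0.05 over all genes. The standard error (SE) comes from the same fit, in which all 32 arrays share 1 estimate of the spread. The 6 arrays were lung by their markers. Sftpc, a surfactant protein of alveolar type 2 cells, read between 14887 and 24788, Ager of type 1 cells between 17244 and 29131, and Cdh5 of endothelium between 7106 and 9231.

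Several features of the arrays went with genotype and stand beside the results that follow. All 9 hybridisation spike-in probe sets, which read bacterial and phage RNA added in the same amount to each array, were higher on all 3 KO arrays than on all 3 WT arrays, by 0.93 at the median (0.68 to 1.24). Their geometric mean was 2393, 2508 and 2267 on the WT arrays and 4399, 4909 and 4313 on the KO arrays. The ratio of 3' to 5' control signal (3'/5'), which grows as RNA is degraded or copied short, averaged over actin and Gapdh 0.21, 0.35 and 0.36 on the log2 scale in WT and 1.05, 0.81 and 0.68 in KO. Again the groups did not overlap. The highest signal of an array was 23694 to 25570 in WT and 36164 to 39687 in KO, although the trimmed mean was set to 500 on every array. The median change of the 261 genes with a mean signal over 10000 was 0.41, with 213 higher and 2 lower in KO without overlap of the groups. It was 0.02 over all genes. After quantile normalization, which gives all arrays 1 distribution, the median of those bright genes was 0.01 and that of the spike-ins still 0.84. The part of these differences in the changes of bright genes was not tested, and quantile values are given beside them.

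**Figure D1:**
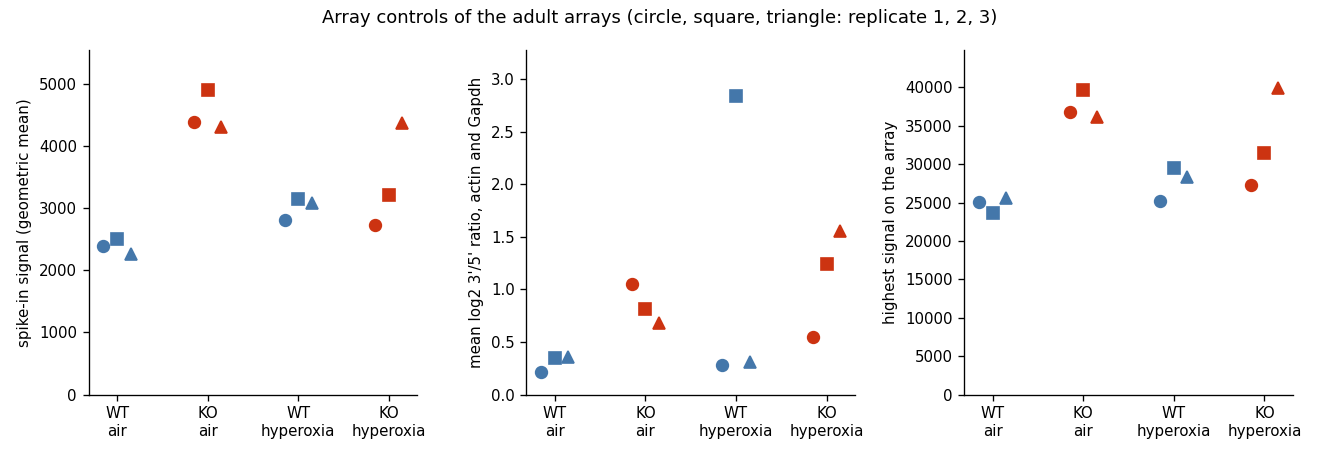
Array controls of the 12 adult arrays, 3 in each group: the geometric mean signal of 9 spike-in probe sets, the log2 3'/5' ratio averaged over actin and Gapdh, and the highest signal of the array (linear scale). In air the 3 KO arrays lie above the 3 WT arrays in all 3 panels, and WT hyperoxia replicate 2 stands apart with a 3'/5' ratio of 2.84.

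The sex-linked genes also split the groups unevenly. Y-linked Eif2s3y read 1548, 1992 and 130 on the WT arrays and 1396, 75.5 and 89.2 on the KO arrays. Xist, which silences an X chromosome in females, read 506, 387 and 8524 in WT and 5598, 9020 and 11567 in KO. WT replicates 1 and 2 thus carried Y-linked RNA and WT replicate 3 and KO replicates 2 and 3 Xist. KO replicate 1 carried both at high level, although each array is given as RNA of 1 mouse. Outside the comparison, WT P5 hyperoxia replicate 3 also carried both, with Xist at 5229 and a mean log2 Y-linked level of 9.77. The cause was not tested. With the level of the Y-linked genes as a covariate 50 genes were called in place of 10. Those 50 included all 10.

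Of the 13345 genes 10 were called, 0.0749% of those tested. The 5 that rose (0.0375%) were Actb, Saraf, Eif4g2, Rps28 and Rps3a1, and the 5 that fell (0.0375%) were Gsr itself, Zdhhc2, Papss2, Pomk and Cyth3. At an unadjusted p under 0.05 there were 1580. The groups did not overlap for 2385 genes with KO higher (17.9%) and for 2220 with KO lower (16.6%). Changes over 2-fold were found for 96 genes, 62 of them without overlap. After quantile normalization 5 genes were called, 0 higher and 5 lower, and after centring on the median log2 value 3, 0 higher and 3 lower. The count of calls depended on 2 arrays outside the comparison. KO E19 replicate 1 and WT P56 hyperoxia replicate 2 had the highest 3'/5' ratios of all 32 arrays (4.37 and 2.84), and a fit of the other 30 arrays, added once the values were known, called 503 genes. Of these 278 were higher (2.08%) and 225 lower (1.69%), and 104 had a mean signal over 10000. All 10 genes were among them. With quantile normalization as well the 30 arrays gave 203 calls, 96 higher (0.719%) and 107 lower (0.802%), of which 9 were over 10000, and 189 genes were called in both. These fits are named below as the 30-array fit and the quantile 30-array fit.

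**Figure D2:**
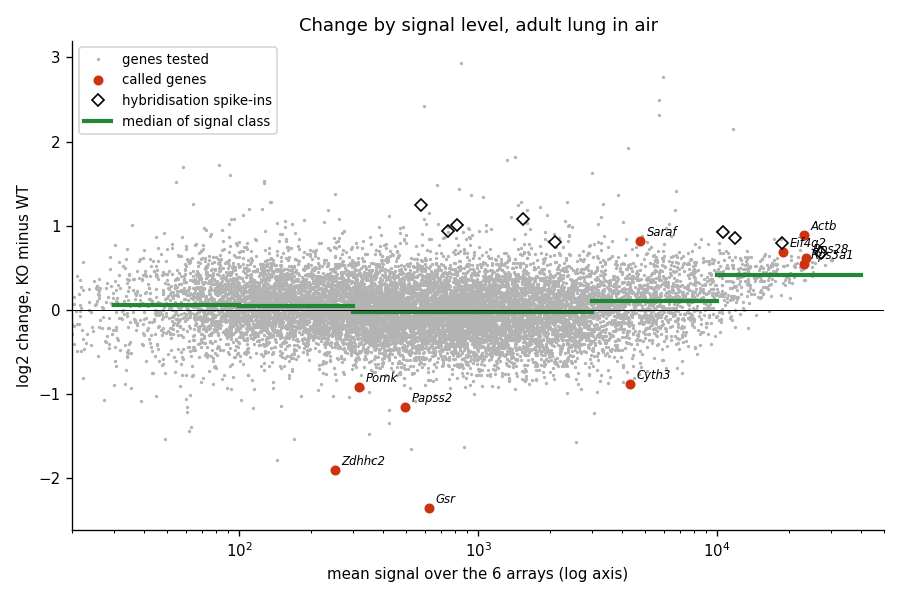
Change of each of the 13345 genes (KO minus WT, log2) against its mean signal over the 6 arrays (log axis), with the called genes in red, the 9 spike-in probe sets as diamonds and the median of each signal class as a green line. The median rises to 0.41 for signals over 10000, where 4 of the 5 genes called higher lie, and all spike-ins lie above 0.

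Gsr fell by 2.35 in KO (SE 0.18, adjusted p = 9.6e-09, limma). Its signal was 1124, 926 and 1124 on the WT arrays (mean 1058 ± 114, SD, n = 3) and 193, 182 and 182 on the KO arrays (mean 186 ± 6.58, n = 3). The second Gsr probe set read 1033, 735 and 1072 in WT and 21.0, 66.2 and 93.7 in KO (-3.57). The labels and the target gene thus matched on all 6 arrays. An exact permutation test of the 6 arrays gave p = 0.1 for either probe set, the smallest that 3 against 3 allow. The quantile values left the change at -2.34.

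**Figure D3:**
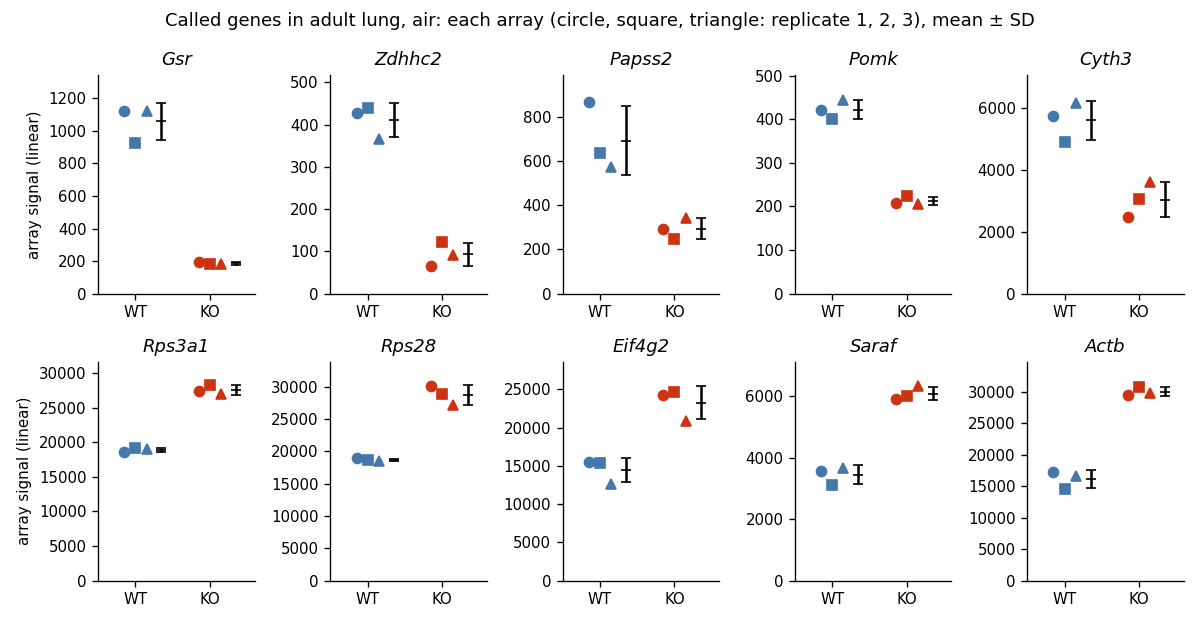
Signal (linear, axis from 0) of the 10 called genes on each of the 3 WT and 3 KO adult air arrays, with the mean ± SD beside the points. The groups do not overlap for any of the 10; Gsr reads 926 to 1124 in WT and 182 to 193 in KO.

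Among the other genes that fell, Zdhhc2 encodes a palmitoyltransferase of the plasma membrane and recycling endosomes. It read 428, 440 and 365 in WT and 65.4, 121 and 92.0 in KO, a change of -1.90 (SE 0.28, adjusted p = 0.0027). Its 4 probe sets did not move together. A second read 251, 268 and 247 in WT and 50.8, 55.0 and 66.6 in KO (-1.75). The third went the other way, with 63.2, 49.3 and 14.2 in WT and 244, 228 and 202 in KO (1.95, adjusted p = 0.020 where each probe set was tested on its own). The fourth overlapped between the groups (0.18), and it stands for the gene when the probe set is chosen by its mean log2 value. The fall of Zdhhc2 thus holds for 2 of its 4 probe sets.

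Papss2 makes the activated sulfate donor that sulfotransferases need for proteoglycans. It fell by 1.16 (SE 0.21, adjusted p = 0.026), from 868, 635 and 574 in WT to 292, 247 and 343 in KO. Its other 2 probe sets that passed the filter were lower too, by changes of -0.62 and -0.85 that were not called on their own. Pomk, a kinase of the O-mannose glycan of dystroglycan, the receptor that ties cells to laminin, read 420, 401 and 444 in WT and 208, 223 and 206 in KO (-0.91, SE 0.18, adjusted p = 0.041). Its second probe set gave -0.41. Cyth3, a guanine nucleotide exchange factor for ARF GTPases, read 5731, 4894 and 6151 in WT and 2467, 3059 and 3591 in KO (-0.88, SE 0.16, adjusted p = 0.028). For all 3 the quantile values, -1.12, -0.89 and -0.93, were near the first, with adjusted p of 0.044, 0.075 and 0.018.

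Saraf, the one gene that rose with a signal under 10000, encodes an endoplasmic reticulum protein that restrains store-operated calcium entry. Its signals were 3567, 3118 and 3679 in WT and 5924, 6016 and 6325 in KO, a change of 0.82 (SE 0.16, adjusted p = 0.036), and 0.74 after quantile normalization (adjusted p = 0.087). In the quantile 30-array fit it was called (adjusted p = 0.0076).

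The other 4 genes that rose were among the brightest on the array. Actb, cytoplasmic beta-actin, read 17240, 14578 and 16662 in WT and 29397, 30794 and 29848 in KO (0.90, SE 0.16, adjusted p = 0.026). Its second probe set gave 0.34, and the 5' actin control probe set read 15803, 14146 and 14097 in WT and 11151, 14274 and 13895 in KO, with overlap. The part of the 3'/5' ratio in the change of Actb was not tested. With that ratio as a covariate in limma the change was 0.86 (adjusted p = 0.0060). The ratio is computed in part from actin itself and did not overlap between the compared groups, so that this fit does not decide its part. Eif4g2, a translation initiation factor, was higher by 0.69 (SE 0.13, adjusted p = 0.028), but its other probe sets that passed the filter ran from -0.21 to 0.38. Rps28 and Rps3a1, proteins of the small ribosomal subunit, were higher by 0.62 (SE 0.12, adjusted p = 0.048) and 0.54 (SE 0.11, adjusted p = 0.041). After quantile normalization the changes were 0.34 for Actb, 0.20 for Eif4g2, 0.08 for Rps28 and 0.02 for Rps3a1, with adjusted p from 0.33 to 0.95. The 34 ribosomal protein genes with signals over 10000, gathered after the values were seen, had a median change of 0.50, all 34 with KO higher and no overlap. It was 0.39 for the 227 other genes as bright. After quantile normalization the median of all 47 ribosomal protein genes was 0.08.

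Fewer genes were called with any 1 of the 6 arrays left out, which also leaves its group with 2 arrays. Without KO replicate 1, 2 or 3 there were 3, 3 and 6 calls, and without WT replicate 1, 2 or 3 there were 2, 2 and 3. Gsr and Zdhhc2 were called in all 6 of these fits. The changes of the other 8 genes stayed between 0.52 and 1.28 in size with the same sign, and their adjusted p rose to at most 0.29. A fit of the 2 compared groups alone called 1206 genes, and the 4 P56 groups alone 3.

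Gsr lies on mouse chromosome 8, and 3 of the other 9 called genes lie within 10 Mb of it: Saraf, Zdhhc2 and Pomk. They are 3 of 70 neighbours tested, against 6 of the 13274 genes elsewhere. The groups did not overlap for 42.9% of the neighbours and for 34.5% of the others. An unadjusted p under 0.05 was found for 13 of the neighbours (18.6%) and for 11.8% of the others. Among the 13 were Eri1 (-0.48), Tnks (-0.50) and Fut10 (-0.61) with KO lower and Fnta (0.57) and Lsm1 (0.50) with KO higher. Knockout alleles that are bred into another strain carry linked sequence of the strain of origin, and how these mice were bred is not stated in the labels. Its part in these changes was not tested.

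The same contrast was read in the other groups, which share no array with adult air. Saraf was higher in KO in every condition: its signal was 4764 to 6556 on the 16 KO arrays of the study and 1725 to 3679 on the 16 WT arrays. The changes were 1.23 (SE 0.16) at P56 after neonatal hyperoxia, 1.12 in P5 air, 1.34 in P5 hyperoxia and 1.17 at E19, with adjusted p of 0.00011, 0.00081, 2.9e-05 and 3.9e-06. Zdhhc2 was lower in each, by changes of -2.72 (adjusted p = 2.9e-06), -1.68 (0.013), -0.90 (0.61) and -1.12 (0.0028) in that order. Gsr read 138 to 257 on the KO arrays and 498 to 1541 on the WT arrays.

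The remaining 7 called genes showed no such constancy. Pomk changed by -0.21 at P56 after hyperoxia, by 0.00 in P5 air and by -0.17 at E19, none of them called. Papss2 changed by -0.62, 0.18 and 0.01. Its mean signal was 196 in WT and 196 in KO at E19 and 152 and 178 in P5 air, against 692 in WT in P56 air. At P56 after hyperoxia it read 552 to 639 in WT and 293 to 485 in KO, without overlap. Cyth3 was -0.29 at P56 after hyperoxia but higher in KO at E19 by 0.59 (adjusted p = 0.0058). Over all 10 called genes the sign at P56 after hyperoxia was that of P56 air for 10 and 3 were called there again. Gsr, the target gene, is in both counts, and its sign was set by the genotype. The same sign was found for 63.8% of all genes. Array controls also differed at P56 after hyperoxia. The 3'/5' ratio was 0.28, 2.84 and 0.31 in WT and 0.54, 1.24 and 1.55 in KO. The highest signal was 25247, 29515 and 28344 in WT and 27312, 31465 and 39925 in KO. The part of these differences in the shared signs was not tested. The KO and WT contrast called 5 genes at P56 after hyperoxia (0.0375%), 5 in P5 air (0.0375%), 25 in P5 hyperoxia (0.187%) and 2033 at E19 (15.2%). The test of the difference between adult air and adult hyperoxia called 0 genes with limma, with 328 at an unadjusted p under 0.05. The difference between P56 air and P5 air called 0 likewise, with 1531 at an unadjusted p under 0.05. Against E19 the difference was called for 1053 genes (7.89%), among them Papss2, Cyth3, Actb, Eif4g2, Rps28 and Rps3a1, which were chosen on the P56 air change that enters this difference.

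**Figure D4:**
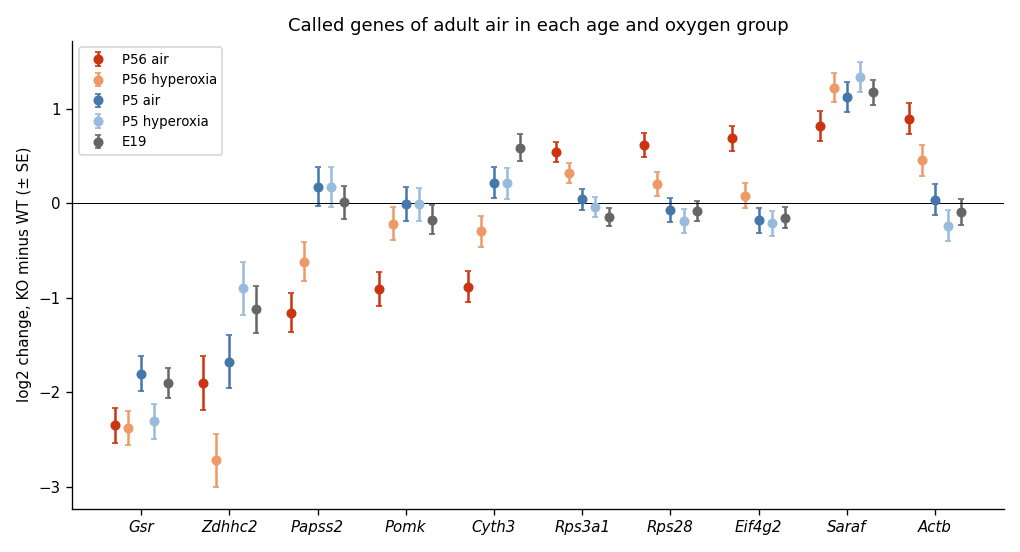
Log2 change (KO minus WT, ± SE from the limma fit) of the 10 called genes of adult air in each of the 5 age and oxygen groups. Gsr and Zdhhc2 lie below 0 and Saraf above 0 in all 5, with Saraf between 0.82 and 1.34, while Papss2, Pomk and Cyth3 lie clearly below 0 in adult air.

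The enzymes around glutathione were taken as 5 lists. No member of any of the 5 was called in the fit of all arrays, and the counts below are read against the 17.9% and 16.6% of all genes whose groups do not overlap in either direction. Of 19 genes for glutathione synthesis, breakdown and transport 5 were higher and 2 lower without overlap, and the median change was 0.00. Both subunits of the rate-limiting ligase were near 0, with 2182 in WT and 2104 in KO for Gclc (-0.05) and 1350 and 1271 for Gclm (-0.08). Of the list, 3 enzymes that act outside the cell had an unadjusted p under 0.05, all with KO higher. The gamma-glutamyltransferase Ggt5 read 265, 279 and 280 in WT and 408, 655 and 339 in KO (0.66, SE 0.23, adjusted p = 0.22), Ggt6 changed by 0.70 (adjusted p = 0.29) and the dipeptidase Dpep1 by 0.75 (adjusted p = 0.29).

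Among 10 glutathione peroxidases, superoxide dismutases and catalase, 6 were higher and 1 lower without overlap, with a median of 0.35 (0.20 after quantile normalization). Gpx4, which reduces lipid peroxides in membranes, read 7229, 9600.5 and 4349.5 in WT and 10937, 15553 and 12467 in KO (0.93, SE 0.26, adjusted p = 0.12, quantile 0.68). Catalase, Cat, changed by 0.55 (adjusted p = 0.19, quantile 0.22) and cytosolic Sod1 by 0.43 (adjusted p = 0.20, quantile 0.08). These 3 were called in the 30-array fit (adjusted p = 0.045, 0.017 and 0.042) and not in the quantile 30-array fit (0.14, 0.23 and 0.74). Sod3, the extracellular superoxide dismutase that lung vessels hold in large amount, went the other way, with 3169, 2775 and 3920 in WT and 1418, 1874 and 2302 in KO (-0.82, SE 0.34, adjusted p = 0.32, quantile -0.79).

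Of 20 glutathione S-transferases, which join glutathione to reactive compounds, 10 were higher and 0 lower without overlap (median 0.24, quantile 0.16). Microsomal Mgst1 was highest, with 16495, 15457 and 15923 in WT and 24957, 26480 and 23503 in KO (0.64, SE 0.17, adjusted p = 0.096, quantile 0.13). Gsta4, which takes lipid aldehydes, changed by 0.58 (quantile 0.48) and Gstp1 by 0.40 (quantile 0.05), with adjusted p of 0.31 and 0.27. Of 25 thioredoxin, glutaredoxin and peroxiredoxin genes 5 were higher and 2 lower without overlap (median 0.08). Txndc17, a thioredoxin-like protein, read 4142, 5267 and 3625 in WT and 10805, 6232 and 6106 in KO (0.79, SE 0.27, adjusted p = 0.23), and was called in both 30-array fits (adjusted p = 0.022 and 0.043). Its other 2 kept probe sets gave -0.11 and -0.0071, with overlap. Txn1 changed by 0.38 and the stress sensor Sesn1, whose groups overlapped, by 0.66. Thioredoxin reductase Txnrd1, the enzyme nearest in function to Gsr, read 2000 in WT and 2132 in KO (0.09). Of 21 NADPH-producing enzymes 4 were higher and 3 lower without overlap (median 0.06), with Tkt at 0.53 (adjusted p = 0.099, quantile 0.20) and Idh1 at 0.44 (adjusted p = 0.38).

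The list of NRF2 targets shares members with those above. Of its 37 measured genes 15 were higher and 2 lower without overlap (median 0.16, quantile 0.05), and 0 were called. In the 30-array fit 5 were called higher (Cat, Cbr1, Fth1, Tkt and Txn1) and in the quantile 30-array fit Cbr1, a carbonyl reductase, which read 1585 in WT and 2161 in KO (0.43). The iron storage subunit Fth1 changed by 0.45 (adjusted p = 0.090), and by -0.08 after quantile normalization. The quinone reductase Nqo1, named here as a textbook target outside the naming rule, read 278 ± 24.2 (SD, n = 3) in WT and 473 ± 65.6 in KO without overlap (0.71, adjusted p = 0.20), while Hmox1, Srxn1 and Slc7a11 changed by -0.32, 0.08 and 0.16 with overlap.

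The core of the antioxidant response element, TGACNNNGC on either strand, was searched in RefSeq promoters of build GRCm38.p6, 250 bases before to 50 after each annotated start. Promoters of a single chromosome were left out of the search. The core was found in 12.4% of the 32851 promoters searched. Counted by gene, where a match in any promoter of the gene sufficed, it was found in 11 of 31 measured NRF2 targets with a promoter among those searched. The shares are in unlike units, since a gene can have several promoters. Windows of 4 well-known targets show the letters, each with 8 bases on either side and the core in capitals, on the strand of the gene.
Me1, chr9:86695904-86695928, minus strand: tgccgccgTGACTCAGCgcttctcg
Ugdh, chr5:65435958-65435982, minus strand: ggagcccgTGACTTAGCtggagctg
Gclm, chr3:122245415-122245439, plus strand: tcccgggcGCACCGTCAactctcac
Txnrd1, chr10:82859106-82859130, plus strand: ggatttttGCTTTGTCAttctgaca
The latter pair carry the core on the opposite strand. These 4 genes changed by -0.12, 0.02, -0.08 and 0.09, each with overlapping groups. The median change of the 11 targets with the core in the window was 0.03 (-0.38 to 0.40), with 1 higher in KO without overlap. Abcc4, which has the core, was lower without overlap (-0.38). For the 20 without it the median was 0.38, with 11 higher without overlap. These medians are on the deposited scale, on which the whole list had 0.16, against 0.05 after quantile normalization. Signal levels and quantile values were not compared between targets with and without the core. A match is not a measured site, and a core that lies further from the start is not in these windows.

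RNA of nuclear genes for mitochondrial respiration was read, and respiration itself was not measured. Of 39 oxidative phosphorylation genes 26 were higher and 0 lower in KO without overlap, with a median of 0.34 and 14 at an unadjusted p under 0.05. The median was 0.15 after quantile normalization. Cytochrome oxidase subunit Cox4i1 read 10834, 10853 and 10805 in WT and 17778, 14778 and 15090 in KO (0.55, SE 0.14, adjusted p = 0.099, quantile 0.18), Cox6c changed by 0.60 (quantile 0.26) and the ATP synthase subunit Atp5e by 0.68 (quantile 0.53). The first 2 and Ndufa2 were called in the 30-array fit and none of the list in the quantile 30-array fit.

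**Figure D5:**
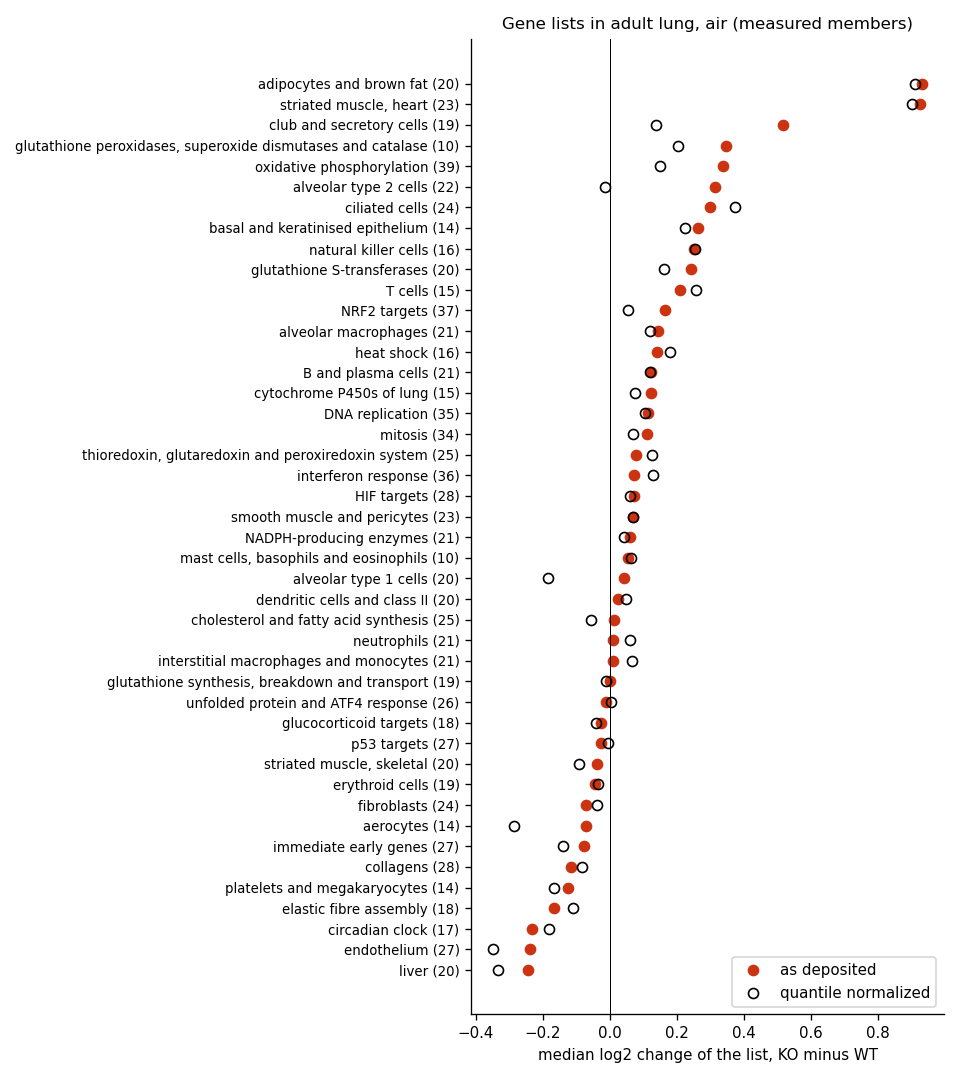
Median log2 change (KO minus WT) of each gene list with at least 10 measured members, as deposited (red) and after quantile normalization (open), with the number of measured members in brackets. The fat and heart lists lie near 0.9 on either scale, while the alveolar type 2 and club cell lists move from 0.31 and 0.52 to -0.01 and 0.14.

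Matrix and basement membrane genes included some of the lowest changes. Of 28 collagens 2 were higher and 8 lower without overlap (median -0.12). The basement membrane chains Col4a3 and Col4a2 changed by -0.87 (adjusted p = 0.31) and -0.59 (adjusted p = 0.29), and Col13a1 by -0.71 (adjusted p = 0.23). Col3a1 of fibrillar collagen changed by 0.51, and by 0.07 after quantile normalization. Fibronectin, Fn1, read 6187, 4799 and 6522 in WT and 3516, 3757 and 3939 in KO (-0.63, SE 0.15, adjusted p = 0.078), and was called after quantile normalization (-0.71, adjusted p = 0.044) and in both 30-array fits. Prelp, a leucine-rich proteoglycan that anchors basement membranes, read 4064, 3592 and 5262 in WT and 1384, 2128 and 1992 in KO (-1.22, SE 0.30, adjusted p = 0.078). Ndnf, a secreted factor with fibronectin domains, had the third lowest change of the 12 named as lowest. It read 4997, 3689 and 2926 in WT and 1358, 1070 and 1378 in KO (-1.56, SE 0.35, adjusted p = 0.073). Both were called in the 30-array fits. A further kept probe set had the opposite sign, with overlap, for each of Fn1 (0.34), Sema6c (0.09), Slc30a1 (0.19), Sod1 (-0.13), Ltbp3 (-0.08) and Dpep1 (-0.20). Elastic fibre genes had a median of -0.17 over 18, with 3 higher and 3 lower without overlap. Fbln5, which elastic fibres need for assembly, changed by -0.46 and Ltbp3, which binds latent TGF-beta, by 0.64.

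Of the other genes named as lowest, the acute phase protease inhibitor Serpina3n read 651, 605 and 600 in WT and 219, 207 and 261 in KO (-1.34, SE 0.42, adjusted p = 0.18). The semaphorin Sema6c (-1.16), the Wnt receptor Fzd2 (-1.08), Fam171a1 (-1.19), Cdyl2 (-1.03), the ubiquitin ligase Rnf125 (-1.01) and Ptprn (-1.07) were lower on all 3 KO arrays, with adjusted p from 0.078 to 0.37. The zinc exporter Slc30a1, which cells induce with metallothioneins when zinc is high, changed by -0.65 and was called in both 30-array fits (adjusted p = 0.0073 and 0.016). The metallothioneins Mt1 and Mt2 themselves changed by 0.27 and -0.09.

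Vascular genes were more often lower than higher in KO. Of 27 endothelial genes 12 were lower and 5 higher without overlap, with a median of -0.24 and of -0.35 after quantile normalization. The median was -0.08 with the 3'/5' ratio as a covariate, and 0.13 at P56 after hyperoxia. S1pr1, the sphingosine phosphate receptor that keeps the barrier, read 1439, 1281 and 1594 in WT and 740, 992 and 1099 in KO (-0.61, adjusted p = 0.32). Lyve1 changed by -0.77 (adjusted p = 0.29) and the lymphatic growth factor receptor Flt4 by -0.80 (adjusted p = 0.12, called in the 30-array fit). The receptor Calcrl of aerocytes and other capillary cells changed by 0.59 (adjusted p = 0.15), and by 0.13 after quantile normalization. Its other kept probe set went the opposite way, with 2330, 1820 and 2228 in WT and 726, 1324 and 928 in KO (-1.11). The endothelial cadherin Cdh5 (-0.02) and Vwf (-0.01) lay near 0. Of the 7 lymphatic genes, Lyve1 and Flt4 among them, 1 was higher and 2 lower without overlap (median 0.11). Of 14 genes of aerocytes, the capillary cells of gas exchange, 1 was higher and 5 lower (median -0.07). Ednrb changed by -0.47 and Nckap5 by -0.68, and Kit of general capillary and mast cells by -0.68.

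Epithelial genes were more often higher in KO on the deposited scale. Of 22 alveolar type 2 genes 15 were higher and 0 lower without overlap (median 0.31, quantile -0.01), with Cxcl15 at 0.55 (quantile 0.05) and the collectin Sftpd at 0.52 (quantile 0.15). Of 19 club cell genes 7 were higher (median 0.52, quantile 0.14), with Scgb1a1 at 0.54 (quantile -0.06) and Scgb3a2 at 0.55 (quantile 0.01). Of 20 alveolar type 1 genes 8 were higher and 4 lower (median 0.04, quantile -0.19), with Ager at 0.51 (quantile -0.02) and Cav1 at 0.32 (quantile -0.16). List levels are mean log2 values centred on each gene. For type 2 cells they were 0.09 to 0.21 in WT and 0.33 to 0.40 in KO. The groups overlapped for club cells (-0.42 to 1.47 and 1.01 to 1.49) and for type 1 cells (0.27 to 0.30 and 0.20 to 0.32). The median of the ciliated cell genes was 0.30 over 24, and 0.37 after quantile normalization, with 5 higher and 0 lower. Their level overlapped as well (0.06 to 0.72 in WT and 0.54 to 0.81 in KO). Ccdc153 read 888, 909 and 1354 in WT and 2600, 2013 and 1855 in KO (1.03, SE 0.29, adjusted p = 0.12) and was called in both 30-array fits. The ciliated cell factor Foxj1 read 698 ± 291 (SD, n = 3) in WT and 906 ± 131 in KO, with overlap.

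Fat and heart muscle, which border the lung, had the highest medians of the lists with at least 10 measured members, though for heart not with the Y-linked level as a covariate. Of 20 genes of fat cells 9 had an unadjusted p under 0.05, all higher in KO, and 4 did not overlap (median 0.93). Thrsp, a lipid synthesis factor, read 65.0, 63.4 and 257 in WT and 1083, 248 and 3383 in KO (2.94, SE 0.71, adjusted p = 0.078). The hormone Adipoq read 67.4, 42.0 and 434 in WT and 744, 262 and 2002 in KO (2.42, SE 0.63, adjusted p = 0.096). The lipid carrier Fabp4 read 1258, 898 and 2732 in WT and 4901, 2793 and 12993 in KO (1.93, SE 0.60, adjusted p = 0.18). All 3 genes were highest on KO replicate 3, next on KO replicate 1, and within WT on replicate 3. Pparg and Ppargc1a, regulators of fat cells, changed by -0.14 and -0.06. Resistin, Retn, read 121, 65.2 and 195 in WT and 396, 197 and 532 in KO (1.38).

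Of 23 heart muscle genes 3 were higher and 0 lower without overlap (median 0.92). Atrial Myl7 read 4536, 1551 and 7818 in WT and 9533, 8354 and 8340 in KO (1.19, SE 0.57, adjusted p = 0.41), and Cox7a1 read 582, 294 and 1138 in WT and 2876, 1915 and 1747 in KO (1.82, adjusted p = 0.30). The level of the list, its mean log2 value centred on each gene, ran from -1.39 to 0.54 on the WT arrays and from 0.42 to 0.45 on the KO arrays, so that the spread lay within WT. For fat it ran from -0.55 to 0.54 and from 0.25 to 1.75. With the Y-linked level as a covariate the median was 0.32 for heart and 0.77 for fat, against 0.51 for club cells and 0.33 for type 2 cells. Over all settings tried heart ran from 0.30 to 1.40 and fat from 0.40 to 1.23. Heart muscle cells sheathe the pulmonary veins of mice, and fat lies at the hilum. The amount of either tissue in each piece of lung was not recorded in the labels, and its part in the changes of Fabp4, Cox7a1, Cox8b (1.78), Atp5md (1.41) and the other genes named as highest was not tested.

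Immune lists differed in their counts. Of 16 natural killer cell genes 6 were higher and 1 lower without overlap (median 0.25), with Klre1 at 1.06, from 106, 111 and 112 in WT to 356, 222 and 215 in KO (adjusted p = 0.13). Of 15 T cell genes 4 were higher and 0 lower, with Cd3d at 0.97 (adjusted p = 0.38). Of 21 neutrophil genes 7 were higher and 0 lower without overlap, with a median of 0.01. Of 21 genes of monocytes and interstitial macrophages 1 was higher and 2 lower, with the same median. Saa3, an acute phase protein, read 470, 529 and 517 in WT and 1637, 1400 and 1044 in KO (1.36, SE 0.44, adjusted p = 0.20). Interferon-induced Ifi27l2a read 1710, 2104 and 2625 in WT and 6117, 4742 and 5728 in KO (1.37, SE 0.35, adjusted p = 0.093) and was called in both 30-array fits, whereas the 36 interferon genes had a median of 0.07. The carboxylesterase Ces1f read 424, 316 and 284 in WT and 1187, 864 and 951 in KO (1.49, SE 0.43, adjusted p = 0.13). Of 27 p53 targets, which respond to DNA damage, 2 were higher and 6 lower (median -0.03), and the unfolded protein list had a median of -0.01. Of 34 mitosis genes 8 were higher and 1 lower (median 0.11), with Ect2 at 0.89, which was called in both 30-array fits.

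The clock genes Nr1d1 and Dbp, which peak and fall over the day, were both lower in KO. Nr1d1 read 618, 479 and 334 in WT and 242, 203 and 225 in KO (-0.98, adjusted p = 0.27), and Dbp read 549, 445 and 343 in WT and 278, 178 and 335 in KO (-0.72, adjusted p = 0.19). At P56 after hyperoxia their changes were 0.24 and 0.06. The median of 17 clock genes was -0.23. The hour of death of the mice is not given in the sources used here.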

How the data were processed

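Lung RNA of 32 mice was measured on an Affymetrix whole-genome mouse array, 1 array per mouse. Each of 45101 probe sets has a deposited linear intensity, and MAS5 is named per the submitters' processing notes, without a version. Each array's mean without its lowest and highest 2% was 500. Precision is limited by the number of arrays. In R 4.3.3, log2(signal + 26.3) was taken (the 25th percentile of all values), and probe sets above 100.4, the median signal, on 3 or more arrays were kept. Symbols came from the platform annotation, updated through RefSeq GRCm38.p6. Each of 13345 genes was read from its kept probe set with 1 symbol and the highest mean signal. All 32 arrays entered 1 limma 3.58.1 fit, a mean per group, 22 residual degrees of freedom and a trended variance, tested two-sided with Benjamini-Hochberg adjustment. Replicate numbers did not pair the arrays.

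Named were Gsr, every called gene, the 12 highest and 12 lowest changes with an unadjusted p under 0.05, no overlap and all 3 arrays of the higher group above the median, every list member with such a p in the 5 redox lists and up to 3 in each other list, lowest p first, without predicted and clone-named genes beyond the called. The comparison, the 52 lists and the rule were chosen with earlier results of these data known, and members cited beside them were chosen after their values were seen.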

Additional observations from a re-analysis of the deposited data

Results flagged for a closer look

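The difference between KO and WT in P56 air was tested against the same difference at E19, and 41 of the 113 named genes passed the limma adjusted p of 0.05, 20 with a positive and 21 with a negative value. Over all 13345 genes 1053 passed (7.89%). The named genes were chosen on the P56 air change, which is part of this difference, so that neither the count nor the signs are independent of that choice. Values are the log2 change at P56 in air minus that at E19. The E19 groups include KO E19 replicate 1, the array with the highest 3'/5' ratio.

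Among the called genes the differences were Papss2 -1.17, Cyth3 -1.47, Actb 0.99, Eif4g2 0.84, Rps3a1 0.68 and Rps28 0.70. For genes of glutathione, peroxide and NADPH handling and iron storage the values were Gpx4 1.65, Ggt6 1.55, Mgst1 0.79, Gstp1 0.74, Tkt 0.74 and Fth1 0.52. For matrix genes they were Fn1 -0.86, Prelp -1.91, Fbln5 -1.07, Col13a1 -1.07, Col4a2 -1.34 and Col4a3 -2.70. For vascular and lymphatic genes they were Flt4 -1.44, Lyve1 -1.36, Kit -1.23, Nckap5 -1.41, S1pr1 -1.06 and Ednrb -1.12. The named matrix and vascular genes with KO higher in P56 air, Col3a1 (0.30), Ltbp3 (0.31) and Calcrl (-0.18), did not pass. For genes of cell division the values were Ect2 1.78, Cdc20 1.33, Bub1 1.74 and Pold1 1.25. The other positive values were Cd9 0.69, Adig 1.84, Lypd2 1.46, Saa3 1.98, Retn 1.96 and Phgdh 2.29. The other negative values were Cdyl2 -1.61, Slc30a1 -1.16, Dbp -1.13, Egr2 -1.03, Ero1a -1.09, Ifit2 -1.41 and Ptprn -1.865.

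A further 3603 probe sets had no gene symbol or several, and no comparison above used them. Of these, 15 were called in P56 air, all with KO higher, with p adjusted over 27031 probe sets. The 23428 with 1 symbol, adjusted among themselves, gave 16, so that the counts do not rest on the same adjustment. Of the 15, 10 had a mean signal over 10000, with a median change of 0.66 and of 0.14 after quantile normalization. The other 5 were dim, at most 328 in KO on average, with medians of 1.61 and 1.56.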

How the results depend on the processing

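The fall of Gsr kept its sign and its call under all 25 alternatives, of which 20 were planned and 5 were chosen after seeing the data. The count of called genes did not: it stayed within 1.5 times of 10 under 6. It was 17 with an offset of 100, 5 after quantile normalization, 3 after centring, 16 with every probe set on its own, 1206 in the 2 compared groups alone, 3 in the 4 P56 groups alone, 3 without a variance trend, 2688 with array weights and 50 with the Y-linked level as a covariate. It was 503 without the 2 arrays of highest 3'/5' ratio, 203 with quantile normalization as well, 1121 in the P56 groups without the P56 hyperoxia array among them, 477 with the 3'/5' ratio as a covariate, and 2 to 6 with 1 of the 6 arrays left out. For P56 hyperoxia the count of 5 became 9 with every probe set, 2 in the 2 groups alone, 9 in the 4 P56 groups, 4736 with array weights, 9 without the 2 arrays, 10 with quantile normalization as well, 29 in the P56 groups without their array and 349 with the ratio covariate. The term for oxygen became 327 with array weights. That for age against P5 became 2595 with array weights, 174 without the 2 arrays, 17 with quantile normalization as well and 195 with the ratio covariate. That against E19 became 2000, 2188, 1860 and 2381 under these 4, and 363 to 814 with 1 array left out. The cause of these moves was not tested.

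Replicate numbers did not pair the arrays (r of same-numbered deviations 0.07, -0.05 and 0.25). With the replicate block 8 genes were called in P56 air and 8 in P56 hyperoxia. Quantile normalization, with or without the 2 arrays, turned Fth1 to -0.081, Scgb1a1 to -0.064, Ager to -0.023, Cav1 to -0.16, Cyp2f2 to -0.0046 and Hspa8 to -0.10, and the probe set chosen by mean log2 turned Zdhhc2 to 0.18. Over all lists and alternatives 84 list medians moved by more than the spread between replicates and 1216 did not.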
